A study of Mus musculus with 8 samples.

Results

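Cytokine receptors signal through JAK kinases, which phosphorylate the receptor tails and the STAT transcription factors, and several families of proteins restrain this signal. A set of 9 genes that encode such brakes was examined in mouse MLL-AF9 leukemia: the SOCS family members Cish, Socs1, Socs2 and Socs3, the tyrosine phosphatases Ptpn1, Ptpn2 and Ptpn6, the STAT inhibitor Pias1 and the adaptor Sh2b3. The genes were chosen by name, and all 9 were found among the 12823 rows of the RNA-seq count table. Counts were available for 8 libraries of sorted GFP-positive cells from bone marrow, 4 of new AML and 4 of aggressive AML, with 7805544 to 9697777 counts each. Levels are given as CPM, the share of a library's counts scaled to a fixed total, with library sizes adjusted by the TMM method.

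Both groups of cells carried a transduced MLL-AF9 fusion, which was made in mouse bone marrow progenitors and coexpressed with GFP, and grew in C57BL/6 mice. New AML was the leukemia that arose about 2 months after those progenitors were given to sublethally irradiated recipients. Aggressive AML is described as the same leukemia after 5 rounds of transplantation, for which the methods name recipients that were not irradiated. The study compared these cells to learn how the leukemia changed while it passed through mice with a working immune system. The mice are described as male and were 8 to 12 weeks old. Replicates are called biological in the labels, which do not say whether the new AML libraries came from separate transductions.

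SOCS proteins bind phosphorylated receptors or JAK kinases through an SH2 domain and recruit a ubiquitin ligase through their SOCS box. The SOCS genes are themselves induced by STAT factors, so that they form a negative feedback loop. PTPN1 (PTP1B) and PTPN2 (TC-PTP) dephosphorylate JAK kinases, PTPN2 also acts on STAT factors in the nucleus, and PTPN6 (SHP-1) is recruited to inhibitory receptors of blood cells. SH2B3 (LNK) binds JAK2 and restrains the signal of hematopoietic cytokine receptors, and its loss is known in myeloid neoplasms.

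Libraries also differed in genes other than the brakes. The Y-linked genes Ddx3y, Eif2s3y, Kdm5d and Uty summed to 251 to 287 CPM in the new AML libraries and had 0 counts in every aggressive AML library. An effect of transplantation can therefore not be told apart from a difference in the donor cells. All 8 markers listed for the leukemia cells, among them Ptprc, Kit, Mpo and Hoxa9, were present, with 2 called higher and 2 lower in aggressive AML. For comparison, 18.4% of all tested genes were called. Of the 8 neutrophil markers, 7 were called lower in aggressive AML (summed 292 to 441 CPM against 145 to 192 CPM). Macrophage markers summed to 200.2 to 311 CPM in new AML and to 79.8 to 112 CPM in aggressive AML, over the 4 of 7 listed genes in the table. Of the 3 tested macrophage markers, 2 were called lower, as was 1 of 6 tested erythroid markers. Erythroid markers ranged from 26.8 to 96.0 CPM and from 10.5 to 51.9 CPM, and the 3 of 6 B cell markers in the table from 36.6 to 42.2 CPM and from 30.6 to 33.7 CPM. The T cell and NK cell lists were represented by Cd28 (58.01 to 86.5 against 45.5 to 86.3 CPM) and Nkg7 (11.1 to 22.2 against 19.96 to 29.9 CPM) alone, and Cd3e, Cd8a, Ncr1 and Klrb1c were not analysed here. Nkg7 was called higher in aggressive AML (log2 fold change 0.70), and Cd28 was not called. The cells had been sorted for GFP, which cells of the recipient do not carry. Fewer cells of a type and less RNA per cell cannot be told apart in such libraries, and the part of these markers in the values below was not tested.

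SOCS genes are known targets of STAT factors, and the sequence around their starts was examined for the elements that such factors bind. The RefSeq promoter windows of build GRCm38.p6, 250 bases before to 50 bases after the annotated start, were matched for 7 of the 9 genes, not for Socs2 and Ptpn2. They were searched on both strands for TTCNNNGAA, the palindromic GAS element bound by STAT dimers, and for GAAA followed by any 2 bases and another GAAA, the core of the ISRE element bound by the interferon-activated STAT complex with IRF9. Among 32851 windows of the same length, 8.30% held the first and 3.44% the second. The stretches that held a match are shown, with the match in capitals.
Socs1, 250 bases before the start (chr16:10785537-10785786, minus strand): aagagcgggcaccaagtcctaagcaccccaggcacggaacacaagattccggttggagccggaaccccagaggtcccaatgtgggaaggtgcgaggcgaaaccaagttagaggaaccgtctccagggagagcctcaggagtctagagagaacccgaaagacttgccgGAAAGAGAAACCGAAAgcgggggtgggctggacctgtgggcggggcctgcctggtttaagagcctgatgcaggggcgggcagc
Socs3, 30 bases around the match (chr11:117969502-117969531, minus strand): agaaaccagccTTCTTAGAAgggagggggg
Cish, 30 bases around the matches (chr9:107296654-107296683, plus strand): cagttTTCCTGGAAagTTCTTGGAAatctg
In Socs1, a pair of overlapping ISRE matches, which share 4 bases, covered positions -83 to -68 from the start. In Socs3 the GAS match lay at -154 to -146, while Cish held 2 GAS matches at 1 to 9 and 12 to 20, counted from the start as 1. All positions count from the RefSeq start. For Socs3 and Cish that start lies inside the GENCODE gene bounds given below, and the sequence before the outer GENCODE start was not searched. The windows of Ptpn1, Ptpn6, Pias1 and Sh2b3 held neither motif in these letters. A match is a description of the sequence and not a bound site.

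Of the 8 genes that passed the filter on low counts, Ptpn1 was the only one called in the edgeR test, and it was lower in aggressive AML. Across all 12494 tested genes, 18.4% were called, 10.2% of them lower and 8.15% higher in aggressive AML as shares of all tested genes, so that 1 of 8 is near the background. An unadjusted p under 0.05 was found for 5 of the 8, against 32.6% of all tested genes. The log2 fold change of aggressive over new AML was below 0 in 6 of the 8, with a median of -0.21, against 49.9% and a median of 0.00 among all tested genes. Ptpn1 and Ptpn6 were the 2 of 8 whose groups did not overlap, both lower in aggressive AML. Groups did not overlap in 21.8% of all tested genes, with aggressive AML above in 9.76% and below in 12.0%. Socs3 did not pass the filter.

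**Figure D1:**
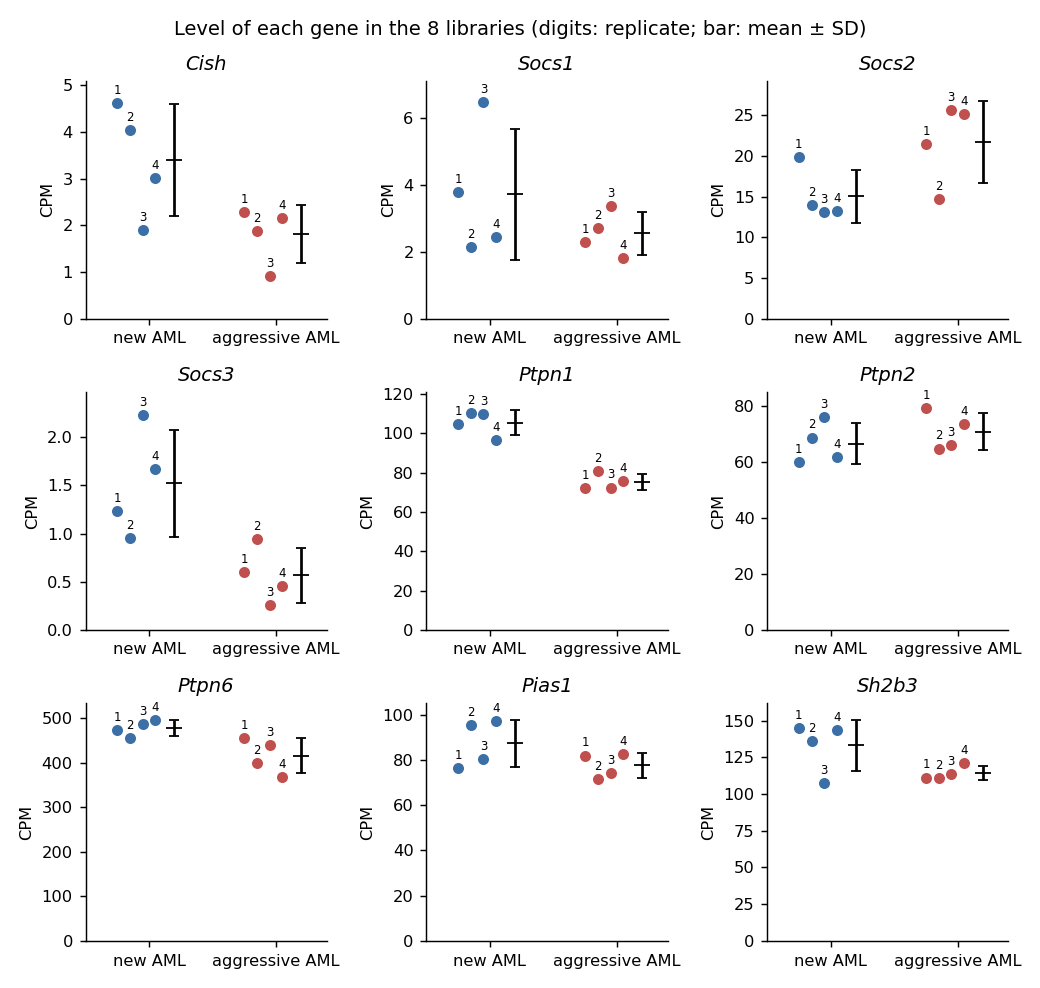
Level of each of the 9 genes in CPM (y axis, from 0) in the 4 new AML and 4 aggressive AML libraries (x axis), with the replicate number above each point and the mean ± SD as a black bar. The points of Ptpn1 separate widely, at 96.4 to 111 CPM against 72.2 to 81.1 CPM, while those of Ptpn2 overlap.

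Ptpn1 (chromosome 2, 167932057 to 167979385, GRCm38) measured 105, 111, 110.1 and 96.4 CPM in new AML replicates 1 to 4, and 72.2, 81.1, 72.5 and 75.7 CPM in aggressive AML replicates 1 to 4. Every aggressive AML library lay below every new AML library, with a gap wider than the range of either group. The mean fell from 106 ± 6.57 to 75.3 ± 4.13 CPM (SD, n = 4 per group), which is -0.49 as a log2 fold change with an SE of 0.08 (edgeR adjusted p = 0.000682). The call held in each of 14 alternative fits, with adjusted p-values from 1.32e-06 to 0.0047. These values rest on 3805 counts in new AML and 2511 in aggressive AML.

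Ptpn2, on chromosome 18, encodes the phosphatase closest to PTPN1 in sequence. It measured 60.1, 68.9, 76.1 and 61.8 CPM in new AML, and 79.3, 64.9, 66.1 and 73.5 CPM in aggressive AML. The groups overlapped almost fully, and the gene was not called (log2 fold change 0.09, SE 0.10, adjusted p = 0.564). In the same library, the level of Ptpn1 per kb of transcript stood at 1.55 ± 0.122 times that of Ptpn2 among new AML libraries and at 1.05 ± 0.138 times among aggressive AML libraries (SD, 4 libraries each). This ratio was 1.41 to 1.71 in the new AML libraries and 0.889 to 1.22 in the aggressive AML libraries, without overlap. Its level depends on the length used. With the longest transcript of each gene it came to 0.989 ± 0.0775 for new AML and to 0.666 ± 0.0877 for aggressive AML, with Ptpn1 below Ptpn2 in 7 of 8 libraries, while the change between the groups is the same with any length. The ratio was formed after the values of the genes had been seen and is given without a test.

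Ptpn6 (chromosome 6, 124720707 to 124738714), which encodes the phosphatase SHP-1 of blood cells, had the highest level of the 9 genes, also per kb of transcript. It measured 473, 456, 486 and 496 CPM in new AML, and 455, 399, 439 and 368 CPM in aggressive AML. The groups did not overlap, but new AML replicate 2 and aggressive AML replicate 1 were nearly level. With a log2 fold change of -0.20 (SE 0.08), the gene was not called (adjusted p = 0.079, 0.0563 to 0.216 over the alternatives). An antisense gene, Gm20531, overlaps its exons, and reads of the 2 genes cannot be told apart where the counting ignored strand.

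Cish (chromosome 9, 107296026 to 107302784), whose product CIS competes with STAT5 for receptor sites, measured 4.62, 4.04, 1.90 and 3.01 CPM in new AML, and 2.29, 1.89, 0.907 and 2.16 CPM in aggressive AML. New AML replicate 3 fell within the range of aggressive AML, and the other 3 new AML libraries lay above all aggressive AML libraries. Its log2 fold change of -0.89 (SE 0.35) was the largest of the 8 tested genes in size, but the counts were few (123 and 61 in all), and it was not called (adjusted p = 0.0912). Without new AML replicate 3 it was -1.09 with an adjusted p of 0.0391. Cish was called in only 1 of the 8 fits that left out 1 library. The adjusted p was highest, at 0.239, without new AML replicate 1. The antisense gene Gm17041 and the pseudogene Gm17040 overlap exons of Cish on the opposite strand.

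Socs2 (chromosome 10, 95385362 to 95417180), a feedback inhibitor best known for restraining growth hormone signalling and also a STAT5 target, went the other way. It measured 19.8, 13.9, 13.1 and 13.3 CPM in new AML, and 21.4, 14.7, 25.7 and 25.2 CPM in aggressive AML. New AML replicate 1 was high for its group, aggressive AML replicate 2 was low for its group, and the groups overlapped through these libraries. It was not called by edgeR (log2 fold change 0.53, SE 0.18, adjusted p = 0.0582), while DESeq2 called it (adjusted p = 0.0377). It was also called without new AML replicate 1 (adjusted p = 0.0243) and without aggressive AML replicate 2 (0.0147), and in none of the other 6 fits that left out 1 library.

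Per kb of transcript, Socs2 stood 5.37 to 10.7 times above Cish in the new AML libraries and 12.2 to 44.1 times above it in the aggressive AML libraries. The mean ratio rested at 7.42 ± 2.31 for new AML and at 22.3 ± 14.8 for aggressive AML (SD, 4 libraries each). With the longest transcripts the means were 5.26 ± 1.64 and 15.8 ± 10.5. The highest ratio, in aggressive AML replicate 3, rests on 7 counts of Cish. Both ratios were chosen after the values were seen, and that of Socs2 to Cish likewise has no test.

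**Figure D2:**
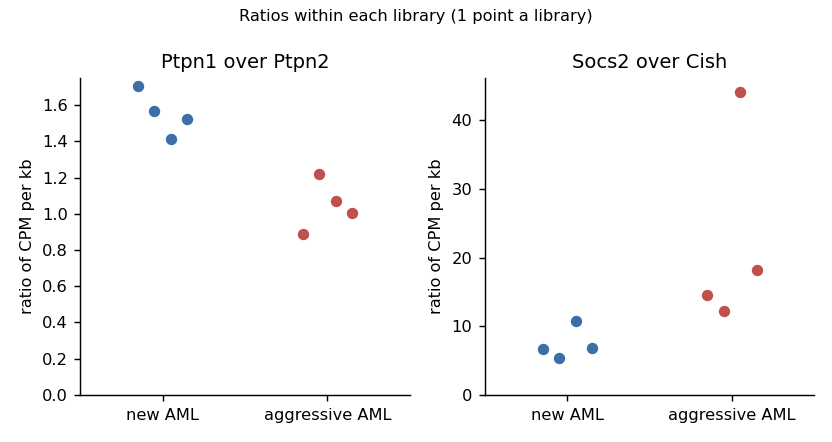
Ratio of the CPM per kb of transcript of Ptpn1 to Ptpn2 (left) and of Socs2 to Cish (right) in each library, with 1 point a library, groups on the x axis and the mean transcript length of each gene. With the longest transcripts Ptpn1 lies below Ptpn2 in 7 of 8 libraries. The groups do not overlap in either ratio, at 1.41 to 1.71 against 0.889 to 1.22 on the left and at 5.37 to 10.7 against 12.2 to 44.1 on the right.

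Socs1 (chromosome 16, 10782240 to 10785536), the strongest known inhibitor of interferon signalling in the family, measured 3.80, 2.14, 6.47 and 2.45 CPM in new AML, and 2.29, 2.71, 3.37 and 1.82 CPM in aggressive AML. The groups overlapped, and new AML replicate 3 was the highest library. The gene was not called (log2 difference -0.55, SE 0.36, adjusted p = 0.304), and without that library the difference was -0.15 (adjusted p = 0.787). New AML replicate 3 also had the highest mean level of 12 interferon-induced genes, at 4.85 on the log2(CPM + 1) scale, where the other new AML libraries lay at 3.71 to 4.11 and the aggressive AML libraries at 2.69 to 2.90. The part of this in the Socs1 level was not tested.

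Socs3 (chromosome 11, 117966079 to 117970047), the feedback inhibitor of IL-6 and G-CSF receptors, had 12, 8, 20 and 15 counts in new AML, and 5, 8, 2 and 4 counts in aggressive AML. These correspond to 0.951 to 2.23 CPM and 0.259 to 0.943 CPM, so that the groups were apart by less than the worth of 1 count. Fitted without the filter, the log2 fold change was -1.39 (SE 0.47), at an edgeR adjusted p of 0.0502 that does not pass the threshold. Leaving out 1 library moved this adjusted p between 0.0395 and 0.128, with a call without aggressive AML replicate 2 and without new AML replicate 2 (0.0496).

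Sh2b3 (chromosome 5, 121815488 to 121837646) measured 145, 136, 107.5 and 144 CPM in new AML, and 111, 111, 114 and 121 CPM in aggressive AML. In new AML, replicate 3 lay below all aggressive AML libraries, and the other 3 lay above them. It was not called with all libraries (log2 fold change -0.22, SE 0.09, adjusted p = 0.116). Without new AML replicate 3 it was -0.31, and the gene was called (adjusted p = 0.012). That was the only call in the 8 fits with 1 library left out. Without new AML replicate 1 the adjusted p of Sh2b3 was highest, at 0.266. Exons of Atxn2, at a mean of 46.9 CPM, overlap those of Sh2b3 on the opposite strand.

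Pias1 (chromosome 9, 62878368 to 62987924), which encodes a SUMO ligase that inhibits STAT factors, measured 76.5, 95.5, 80.3 and 97.0 CPM in new AML, and 81.9, 71.5, 74.4 and 82.5 CPM in aggressive AML. The groups overlapped (log2 fold change -0.17, SE 0.10, adjusted p = 0.237), and the gene was called in 0 of the 14 alternative fits.

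**Figure D3:**
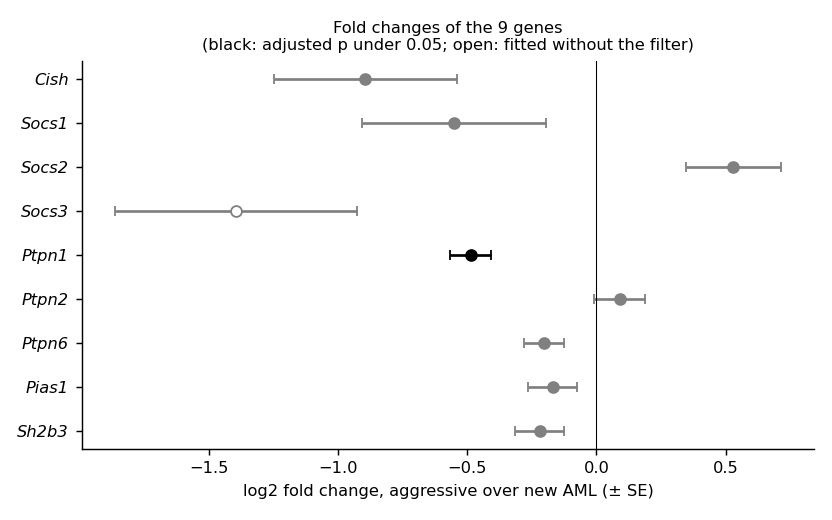
Log2 fold change of aggressive over new AML (x axis) for each gene, with the standard error as a bar, black for an adjusted p under 0.05 and grey otherwise, and an open point for Socs3, which was fitted without the filter. Ptpn1 at -0.49 is the only black point, and the genes of low count (Socs3, Cish and Socs1) have the widest bars.

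The 9 genes differed far more in level from each other than between the groups. Per kb of transcript, taken as the mean length of the annotated transcripts, Ptpn6 stood at 499 ± 18.4 CPM per kb among new AML libraries and at 434 ± 41.0 among aggressive AML libraries (SD, 4 libraries each). Next came Sh2b3, Ptpn1, Ptpn2 and Pias1, with means of 35.1 to 63.5 CPM per kb in new AML and 31.2 to 50.5 in aggressive AML. Socs2 followed at 10.6 ± 2.27 and 15.3 ± 3.55 CPM per kb. The means of Cish, Socs1 and Socs3 lay at 1.31 to 1.53 in new AML and at 0.515 to 0.895 in aggressive AML. The 8 pairs of neighbours in this order were compared across the 8 libraries by a two-sided exact permutation test of the paired log2 difference. The p-values were adjusted over the 8 pairs. The order was taken from these same values, so that the p-values describe how steady each step was and do not test the order. Ptpn6 exceeded Sh2b3, Pias1 exceeded Socs2 and Socs2 exceeded Cish in 8 of 8 libraries (exact p = 0.0078, the smallest that 8 libraries allow, adjusted p = 0.0208 for each). Ptpn2 exceeded Pias1 in 7 of 8 (adjusted exact p = 0.0312). The steps from Sh2b3 to Ptpn1, Ptpn1 to Ptpn2, Cish to Socs1 and Socs1 to Socs3 did not exceed the spread between libraries (adjusted exact p of 0.883, 0.0625, 0.883 and 0.427). Libraries of both groups were pooled, so that a difference between the groups counts as spread. By mean length, Ptpn1 was 1.41 to 1.71 times Ptpn2 in new AML libraries and 0.889 to 1.22 times in aggressive AML libraries. With the longest transcript as the length, Ptpn2 came before Ptpn1 and Socs1 before Cish (adjusted exact p of 0.0521 and 0.025).

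Within groups, the level of Ptpn1 was compared with that of all other tested genes, after the mean of each group had been subtracted. Over the 8 libraries, Gpatch4 (Pearson's r of log2(CPM + 1) of 0.98), Lpcat4 (0.96) and Igf1r (0.96) were most like it. Of these, Lpcat4 rose from 16.4 to 25.3 CPM and Igf1r from 61.5 to 141 CPM in aggressive AML, opposite to Ptpn1. With 8 libraries and 12494 genes, such values describe the libraries and have no test. Within groups the r of Ptpn1 with the other 7 tested brakes lay between -0.57 for Ptpn6 and 0.23 for Socs1.

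The partners of these brakes were described from lists written from general knowledge, with earlier results of these data known. SOCS proteins act through elongins B and C (Tceb2 and Tceb1 in the table), cullin 5 and the RING protein RNF7. Of 6 tested genes of this ligase and its close relatives, Rnf7 was called and rose from 57.4 ± 8.096 to 76.7 ± 8.31 CPM (log2 fold change 0.42, adjusted p = 0.0148), and the others lay between -0.10 and 0.35. Rnf7 was called in 5 of the 8 fits that left out 1 library, and its adjusted p was highest, at 0.0552, without new AML replicate 2. The median of the list was 0.13, and 18.4% of all tested genes were called.

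Of 21 further negative regulators, 4 were called lower and 1 higher in aggressive AML, near the 18.4% called among all tested genes, with a median of -0.06. Usp18, which blocks the type I interferon receptor and is itself induced by interferon, fell from 14.6 ± 6.21 to 2.89 ± 1.25 CPM (log2 fold change -2.32, adjusted p = 0.000208). Socs5 fell from 13.5 ± 2.68 to 6.65 ± 2.28 CPM (adjusted p = 0.00788). Its relatives Socs4, Socs6 and Socs7 had log2 differences of 0.13, 0.08 and -0.05 and were not called. The lipid phosphatase gene Inpp5d (SHIP1, 343 ± 27.7 to 278 ± 26.02 CPM) and the adaptor gene Dok1 (38.2 ± 3.01 to 29.3 ± 3.16 CPM) were both lower (adjusted p of 0.0193 and 0.0252). They lost the call in 5 and 4 of the 8 fits with 1 library left out, with the highest adjusted p, 0.0697 and 0.0873, without new AML replicate 2. Spred2, an inhibitor of the RAS and ERK pathway, rose from 57.1 ± 6.83 to 75.5 ± 6.64 CPM (adjusted p = 0.0122). Ptpn11, Ptprc, Ptpn7, the other 3 Pias genes and Sh2b1 were not called.

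The brakes act on the JAK kinases and STAT factors. Of 10 JAK and STAT genes, 5 were called lower and 0 higher, with a median of -0.31. Among all tested genes, 10.2% were called lower and 8.15% higher. Stat2 fell from 66.1 ± 5.49 to 46.04 ± 6.91 CPM, Stat3 from 167 ± 6.75 to 129 ± 8.64 CPM and Stat6 from 145 ± 10.7 to 113 ± 9.89 CPM. Jak2, whose kinase SOCS3, SH2B3 and PTPN1 restrain, fell from 72.1 ± 6.09 to 53.7 ± 7.67 CPM (adjusted p = 0.0114). Tyk2 was called at an adjusted p of 0.0425, which held in 2 of the 8 fits with 1 library left out and reached 0.123 without new AML replicate 4. Stat5a (log2 difference -0.04) and Stat5b (-0.20), the factors that induce Cish and Socs2, were not called.

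Among 20 tested cytokine receptor genes, 14 were called lower and 2 higher, with a median of -0.43. The shares over all tested genes were 10.2% lower and 8.15% higher. The list also holds Csf1r, Kit and Flt3, which encode receptors with a tyrosine kinase domain of their own. Lifr, the leukemia inhibitory factor receptor, fell from 15.3 ± 3.76 to 2.94 ± 2.02 CPM. Il10ra measured 25.3 ± 7.23 CPM in new and 5.83 ± 1.93 CPM in aggressive AML (adjusted p = 2.28e-05). Csf1r, the receptor of macrophage colony-stimulating factor and one of the macrophage markers above, fell from 166 ± 28.4 to 51.2 ± 6.42 CPM. Il6st, the shared gp130 chain on which SOCS3 acts, fell from 96.7 ± 11.2 to 41.7 ± 4.02 CPM. Csf3r, another receptor restrained by SOCS3, fell from 116 ± 11.2 to 69.8 ± 6.26 CPM. Kit rose from 105 ± 18.3 to 165 ± 17.5 CPM, and Ifngr1 rose from 374 ± 29.8 to 486 ± 85.1 CPM, with a call in 7 of the 8 fits with 1 library left out (adjusted p = 0.0687 without new AML replicate 1).

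Of 15 tested genes that STAT factors are known to induce, 2 were called lower and 1 higher, near the 18.4% called among all tested genes. The log2 fold change was below 0 in 10 of the 15, with a median of -0.29. Bcl3 fell from 11.5 ± 1.97 to 6.49 ± 2.45 CPM (adjusted p = 0.0231), Irf1 from 83.05 ± 21.1 to 57.4 ± 8.66 CPM (adjusted p = 0.0229), and Id1 rose from 6.85 ± 1.3 to 11.1 ± 2.23 CPM (adjusted p = 0.0251). Bcl3 and Id1 were each called in 3 of the 8 fits with 1 library left out, with adjusted p-values of up to 0.0698 without new AML replicate 1 and 0.0807 without aggressive AML replicate 2. Irf1 was called in 5 of them, with 0.0563 without new AML replicate 3. The STAT5 targets Pim1 and Osm had log2 differences of -0.58 and 0.51 and were not called (adjusted p of 0.0611 and 0.0772).

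Interferon-induced genes, which answer the pathway that Socs1 and Usp18 restrain, were called lower in 11 of 12 tested, with a median of -1.53. Oas2, which senses double-stranded RNA, fell from 24.2 ± 7.92 to 4.17 ± 1.66 CPM. The transcription factor gene Irf7 fell from 26.3 ± 10.8 to 7.28 ± 0.558 CPM. The nucleic acid sensor gene Zbp1 fell from 14.1 ± 12.3 to 2.91 ± 0.355 CPM. New AML replicate 3 was the highest library in Zbp1, at 32.6 CPM, and without it the log2 fold change of Zbp1 went from -2.27 to -1.45. These counts stand beside 1 of 8 for the brakes. Among all tested genes, 10.2% were called lower and 18.4% in either direction. The study itself reported lower expression of interferon-related genes in these same cells. Whether the lists differ from each other was not tested.

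**Figure D4:**
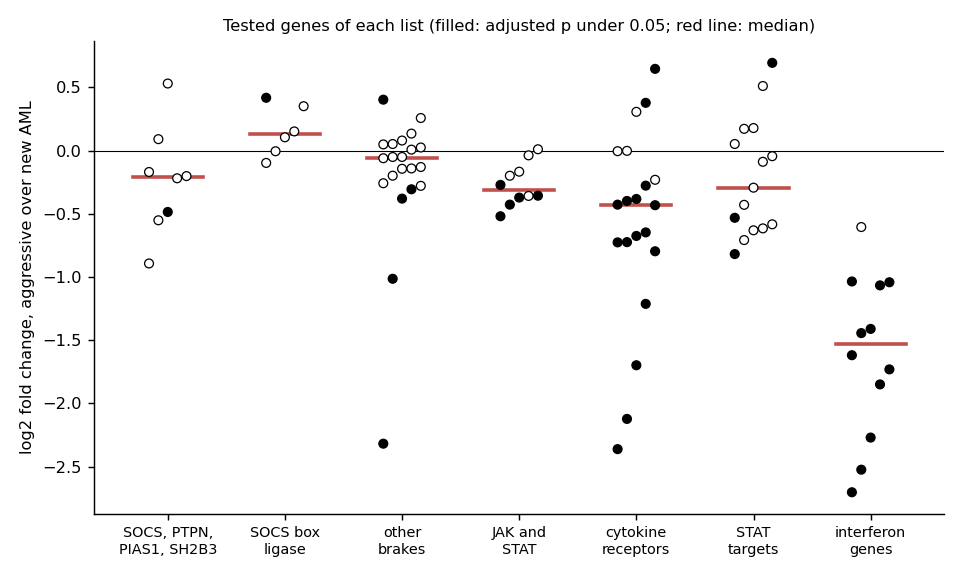
Log2 fold change of aggressive over new AML (y axis) of every tested gene, by list (x axis), with filled points for an adjusted p under 0.05 and the median of each list as a red line. The 8 tested brakes have a median of -0.21, between -0.06 for the further negative regulators and -0.31 for the JAK and STAT genes, and the interferon-induced genes are lowest at -1.53.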

How the data were processed

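The authors purified polyadenylated RNA, sequenced it from both ends, aligned the reads to mm10 with HISAT2 and counted them per gene with Rsubread. The annotation and strand setting were not given in the sources used here. Although its name refers to CPM, the table deposited by the authors holds whole read counts whose totals differ between libraries, and these were used as raw counts. The study tested log2 CPM with limma, which was kept as an alternative. The test was limited to genes that reached 1 CPM in at least 4 of 8 libraries (12494 of 12823 rows, 1 row repeating a name) and made with edgeR 4.0.16 (R 4.3.3, quasi-likelihood test, TMM, two-sided, Benjamini-Hochberg over all genes, threshold 0.05). It was tested on simulated data. The study gives n = 4 per group and male mice. Labels do not say whether each library came from a separate animal or a separately arisen leukemia, so that p-values measure the spread between these libraries. Standard errors were derived from the F statistic, and 1 count was worth 0.103 to 0.13 CPM. Replicate libraries differed beyond sampling noise, with a chi-square per degree of freedom of at least 4.04. The 9 genes and all lists were chosen with earlier results of these data known. From each list the 3 called genes with the largest change and at least 10 CPM in the higher group were to be named, and all called genes among JAK and STAT genes. From the JAK and STAT list, 1 gene is not reported here, and the counts and median of the list leave it out. Other genes named from the lists were chosen after their values were seen. Locations and lengths came from GENCODE M21 (GRCm38). Alternatives were DESeq2 1.42.0, limma 3.58.1 on log2(CPM + 1), RLE scaling, no filter, each library left out, and the replicate number as a block. The omission of replicate 3 from both groups together, the ratios with the longest transcripts and the unfiltered fits of Socs3 were added after the data had been seen.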

Additional observations from a re-analysis of the deposited data

Results flagged for a closer look

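Socs2 in new AML replicate 1, at 19.8 CPM, stood apart from the other 3 libraries of its group, which lay between 13.1 and 13.9 CPM. The gap was 0.873 of the range of the group, above Dixon's 95% critical value for 4 samples. Of 18 groups of values examined (9 genes in 2 groups of libraries), this was the only one past that limit, and chance flags about 1 in 20 groups. Without this library the log2 fold change of Socs2 was 0.70 (adjusted p = 0.0243) in place of 0.53 (0.0582).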

How the results depend on the processing

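Of 123 values of the 9 genes under an alternative, 115 kept their direction and their side of the threshold, 8 passed the threshold only under the alternative and 0 turned direction. Under DESeq2, 2 of the brakes were called (Ptpn1 and Socs2) and 2 genes of the SOCS box ligase list. Without replicate 3 of both groups 2 brakes were called (Ptpn1 and Sh2b3). With 1 library left out, 1 to 3 brakes were called, 3 without new AML replicate 3 (Ptpn1, Cish and Sh2b3), and 0 to 2 genes of the SOCS box ligase list, 3 to 5 of the further negative regulators and 1 to 4 of the STAT targets. Over all genes, 2296 were called with all libraries and 1466 to 2405 with libraries left out, the lowest without new AML replicate 2 and the highest without replicate 3 of both groups. The deviations of same-numbered libraries correlated at 0.097, -0.04, -0.07 and 0.20, and 3 of 8 libraries correlated best with their own number. With 4 libraries per group, these values cannot show whether the replicate numbers pair the samples. With the replicate block, 6 STAT targets were called in place of 3, and 2367 genes in all. The block changed no call of a brake. The level of Cish, Socs1 and Socs3 rests on 2 to 58 counts per library, which limits what could be detected for them.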
